A study of Homo sapiens with 4 samples.

Results

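Of 18106 clusters of H3K9ac regions in T98G cells, 360 clusters under 4 kb with at least 3 regions in the control library were also found in the RBBP4 shRNA library, while the control regions covered at least 1.5 times the length. T98G is an established human glioblastoma cell line. It was used at passage 4 and transduced with lentivirus for either the control shRNA, shNT, or the shRNA to RBBP4, shRBBP4. Histone H3 acetylated at lysine 9 (H3K9ac) was profiled by chromatin immunoprecipitation and sequencing, with 1 H3K9ac library per shRNA, to see how the chromatin landscape of this mark compares between the shRNAs. The shNT list held 26828 called regions and the shRBBP4 list 39303. The number of reads behind either list is unknown, the level of RBBP4 and the input libraries were not analysed here, and with 1 library per shRNA no difference has a replicate check or a test.

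To form clusters, the regions of both lists were pooled and joined across gaps of up to 1 kb. Both libraries had regions in 10454 clusters. Of these, 3498 spanned less than 4 kb and held at least 3 shNT regions, and these are called eligible below. The narrower clusters are the 360 eligible ones whose shNT regions covered at least 1.5 times as many base pairs as their shRBBP4 regions. That is 10.3% of the eligible clusters (95% exact Clopper-Pearson interval 9.30 to 11.3). The clusters were thus chosen by their covered length in both libraries, and every value below describes them and is no evidence for a loss of acetylation. All intervals cover counting error only and treat clusters as independent.

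H3K9ac is deposited by acetyltransferases and removed by histone deacetylases, and it lies mainly around the starts of active genes and at active enhancers. At an active promoter the mark usually sits on the nucleosomes flanking a nucleosome-poor start site, so that it is often called as several short regions side by side. RBBP4 is a histone-binding WD-repeat protein found in several chromatin complexes, among them the deacetylase complexes Sin3 and NuRD, the Polycomb complex PRC2 and the chromatin assembly factor CAF-1. Genes at the clusters were not analysed here, and clusters are named by their hg19 position, with starts counted from 1.

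Clusters of this kind were the less common direction, by a margin that depended on the length of the lists. In the same 3498 clusters, 823 were covered at least 1.5 times as far by shRBBP4 regions (23.5%). The rule for narrower clusters asks for several shNT regions, which favours clusters well covered in shNT. When at least 3 shRBBP4 regions were asked for in place of 3 shNT regions, 2296 of 4896 clusters were wider in shRBBP4 (46.9%) and 149 were narrower (3.04%). In lists of equal length, with the shRBBP4 list cut to its highest-scoring regions, narrower clusters numbered 633 and wider ones 1170, in place of 360 and 2296. These were 18.1% and 37.5% of the clusters eligible for each rule, in place of 10.3% and 46.9%.

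The covered length of the 360 clusters was close to that of the other eligible clusters in shNT and lower in shRBBP4. Their shNT regions covered a median of 1023 bp per cluster (quartiles 741.8 and 1369 bp), against 1034 bp in the 3138 eligible clusters below the ratio limit. Their shRBBP4 regions covered a median of 491.5 bp (quartiles 296.8 and 726.5 bp), against 1293 bp. The clusters spanned a median of 1836 bp, and the others 2287 bp. Summed over the 360 clusters, 1348 shNT regions covered 397.4 kb and 825 shRBBP4 regions covered 196.5 kb. The single regions differed less in width, with a median of 214 bp for shNT and 182 bp for shRBBP4 regions in these clusters and 215 and 264 bp in the others.

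Most of the clusters lay near the limit, and a few kept little called length in shRBBP4. The ratio of shNT to shRBBP4 covered length had a median of 1.88 (quartiles 1.66 and 2.51). It was below 2 in 200 clusters (55.6%), from 2 to 3 in 96, from 3 to 5 in 46 and at least 5 in 18 (5%). The plot of covered lengths shows no gap at the limit between the narrower clusters and the rest. The 3 clusters just inside it were chr8:61563601-61564816 (ratio 1.5, 690 bp in shNT and 460 bp in shRBBP4), chr7:149192170-149194254 (1.502, 901 and 600 bp) and chrX:70752431-70754673 (1.503, 1312 and 873 bp). The 3 just outside it were chr5:44809107-44810463 (1.497, 1187 and 793 bp), chr1:226249197-226252090 (1.497, 1880 and 1256 bp) and chr17:56769593-56770867 (1.496, 832 and 556 bp).

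**Figure D1:**
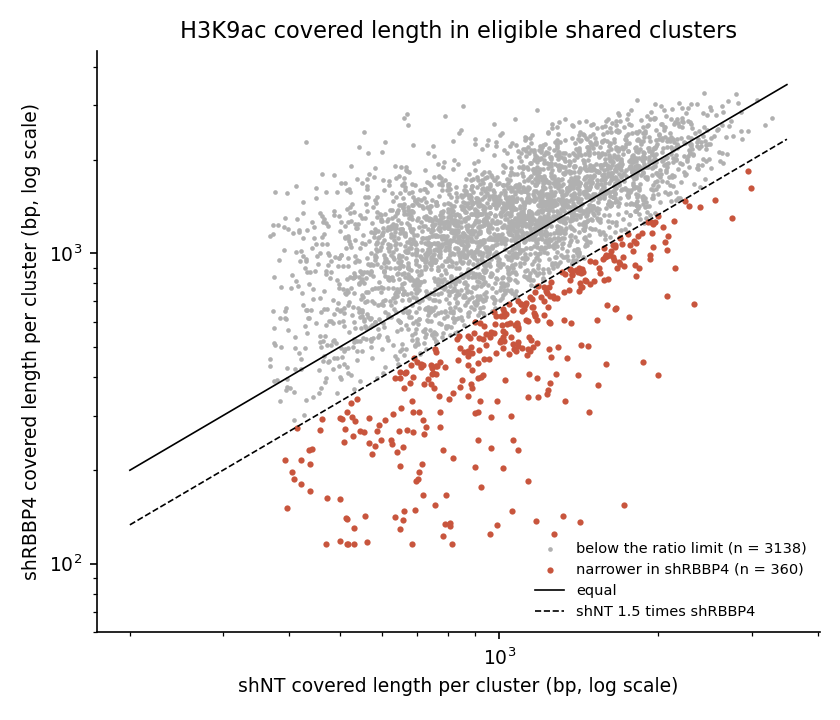
Length covered by called H3K9ac regions in each of the 3498 eligible clusters, shNT on the horizontal and shRBBP4 on the vertical axis, both in bp on log scales. The 360 narrower clusters (red) lie on or below the dashed line of a 1.5-fold ratio and run into the other 3138 clusters (grey) without a gap.

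The largest differences in covered length arose in several forms. The largest, on chromosome 15 from 42564724 to 42568257, had 4 regions in each library, covering 2338 bp in shNT and 685 bp in shRBBP4. Its widest shNT region, of 1764 bp, was matched by 4 short shRBBP4 regions of 117 to 279 bp that all lay inside it, and the other 3 shNT regions had no counterpart. The highest-scoring shNT region of this cluster, 130 bp wide and at percentile 82.0 of the shNT list, was among those not called.

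On chromosome 21 from 17566661 to 17569151, shNT regions covered 1992 bp and shRBBP4 regions 404 bp. The region that scored highest there in shNT (percentile 90.7) lay at the right end and was not called in shRBBP4, whose own regions reached percentile 24.6. No other region of either library, narrower clusters aside, lay within 250 kb of it. On chromosome 8 from 91655913 to 91659007, which was equally isolated, 1868 bp in shNT stood against 445 bp in 3 shRBBP4 regions, the best of them at percentile 28.4.

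A large difference in covered length was found both with and without a lower rank in shRBBP4. On chromosome 8 from 67577200 to 67580689, shNT regions covered 2753 bp and shRBBP4 regions 1303 bp, and the best region stood at percentile 96.7 in shNT and 97.7 in shRBBP4. On chromosome 7 from 86972486 to 86976427, 6 shNT regions covered 2992 bp and 5 shRBBP4 regions covered 1628 bp, with best percentiles of 95.5 and 69.7.

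The highest ratios came from clusters left with 1 short shRBBP4 region. On chromosome 5 from 75917062 to 75919139 the ratio was 11.1, with 1722 bp in 4 shNT regions and a single shRBBP4 region of 155 bp inside the rightmost of them. This shRBBP4 region stood at percentile 67.5, and the 3 shNT regions to its left, at percentiles 45.4 to 65.5, had no counterpart. On chromosome 7 from 65215227 to 65217220 the ratio was 10.4 (1420 and 136 bp), and the remaining shRBBP4 region lay in the leftmost shNT region, whereas the strongest one (percentile 89.3) was not called. On chromosome 16 from 277895 to 279378 the ratio was 10.2 (1269 and 125 bp), and there the remaining region lay within the strongest shNT region.

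In 15 of the 360 clusters the libraries shared no base pair. An example is the cluster on chromosome 7 from 86945668 to 86949007, with a ratio of 9.31. Its 5 shNT regions covered 1322 bp, and its only shRBBP4 region, of 142 bp, lay in the gap before the rightmost of them. The shared label of such clusters rests on the joining of neighbouring regions and not on overlap.

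The narrower clusters with the highest shNT scores also held high-ranking shRBBP4 regions. On chromosome 10 from 70939185 to 70941345, the best region stood at percentile 99.8 in shNT and 99.7 in shRBBP4, while the covered length was 1572 and 961 bp. A 178-bp shNT region held the peak of the score, and a 172-bp shRBBP4 region lay inside it. On chromosome 1 from 71544969 to 71546935, the best percentiles were 99.8 in both libraries and the covered lengths 1596 and 681 bp, with 821 bp on the left side called only in shNT.

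The other clusters of this kind had best percentiles of 99.6 to 99.7 in shNT. At chr8:109259270-109261602 and chr1:115298638-115301101 the best shRBBP4 regions stood at 93.5 and 96.9. On chromosome 8 from 107669850 to 107671484 the best shRBBP4 region stood lower, at 86.4.

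Clusters with many shNT regions also had outer parts without an shRBBP4 region. On chromosome 1 from 46662120 to 46665995, 8 shNT regions covered 1580 bp and 2 shRBBP4 regions 821 bp. The shRBBP4 regions overlapped the shNT region at percentile 95.3 and a weak one beside it, and the 6 others, among them the outermost on both sides, were not called. Of the 5 clusters tied at 7 shNT regions, the 2 with the largest shNT covered length are given. On chromosome 17 from 61626363 to 61629775, 2 of 7 shNT regions were not called, and likewise on chromosome 21 from 19189966 to 19192709. The map of called regions shows these clusters to scale.

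**Figure D2:**
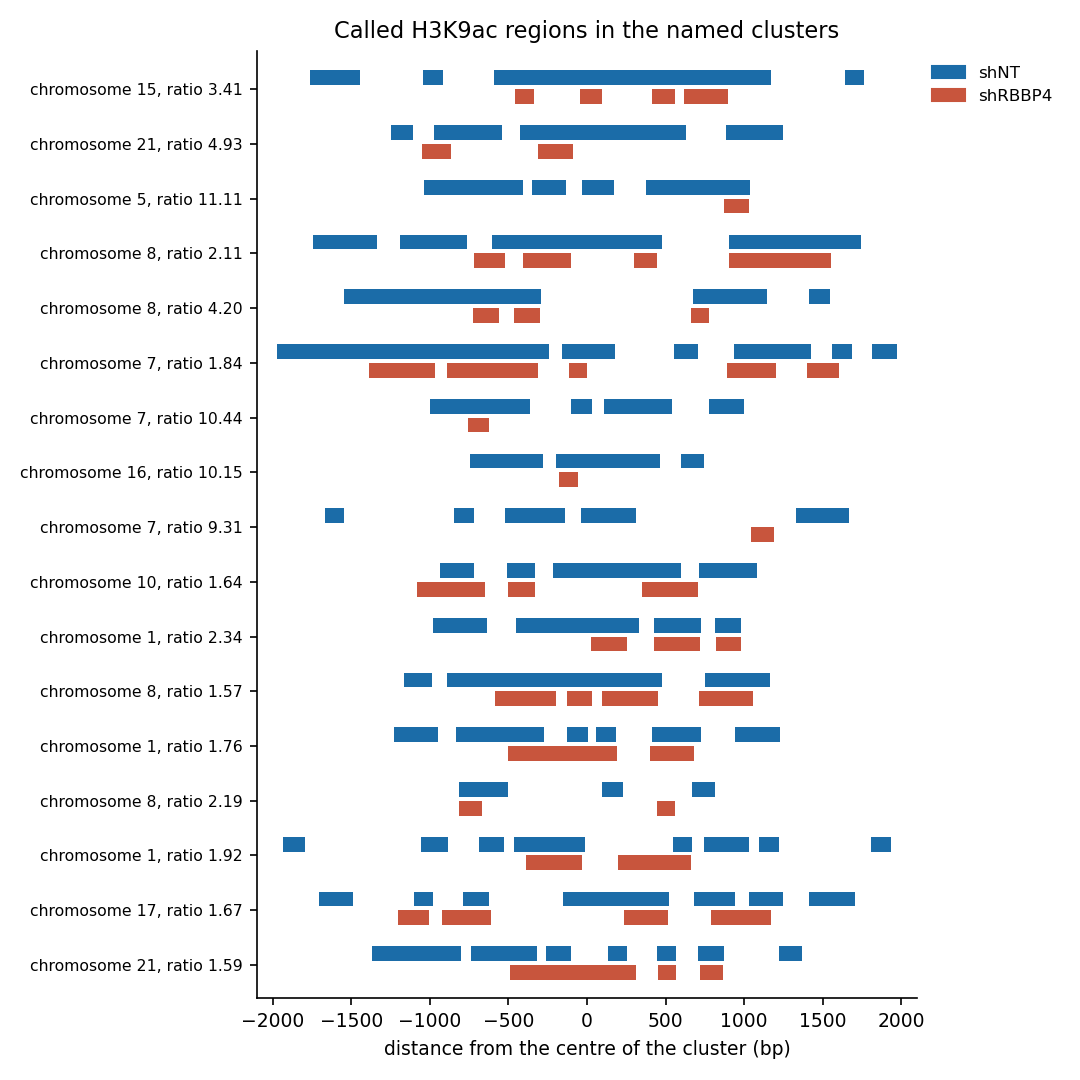
Called regions of shNT (blue) and shRBBP4 (red) in 17 of the clusters named in the text, drawn to scale around the centre of each cluster, with the distance in bp on the horizontal axis and the chromosome and the ratio of covered length on the left. In the clusters with ratios of 9.31 to 11.1 a single short shRBBP4 region remains, while in those with lower ratios shRBBP4 regions are shorter, fewer or confined to part of the shNT outline.

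About as many shNT regions in the narrower clusters were overlapped by an shRBBP4 region as were not. Of 1348 shNT regions, 646 had no overlap of even 1 bp (47.9%, 45.2 to 50.6), 641 were covered in part and 61 in full. In the other eligible clusters, 1857 of 11846 had no overlap (15.7%, 15.0 to 16.3). Regions not called at all made up 52.8% of the 243.1 kb found only in shNT, and trimming of overlapped regions made up 47.2%. At least 1 region was not called in all but 29 of the clusters, with 1 in 110 clusters, 2 in 152 and 3 in 49.

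The missing parts lay mostly at the ends of the clusters. Of the shNT base pairs not called in shRBBP4, 35.8% lay to the left of the leftmost shRBBP4 region, 35.1% to the right of the rightmost one and 29.1% between them. More of them lay beyond the outermost shRBBP4 regions than between them in 277 clusters (76.9%, 72.2 to 81.2), against 41.0% of the other eligible clusters (39.3 to 42.7). Both ends were shortened in 252 clusters (70%), 1 end in 105 and neither in 3. Left and right were alike, with more of the missing length on the left in 177 clusters and on the right in 180, on a map without gene orientation.

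From the outermost start to the outermost end, shRBBP4 regions spanned a median of 960 bp and shNT regions 1780 bp, and within a cluster the shRBBP4 outline was a median of 56.1% of the shNT outline. A shorter shRBBP4 length makes uncovered ends more likely by construction, so the position of the missing parts is not independent of the rule.

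With each cluster cut into 10 slices of equal length, the contrast was steepest at the edges. In the leftmost slice, 81.2% of base pairs were covered in shNT and 28.2% in shRBBP4, and in the rightmost 85.0% and 22.4%. In the fifth slice, near the centre, coverage was 56.1% and 34.5%. In the other eligible clusters the shRBBP4 library covered more in every slice, with 57.7% against 50.5% in the fifth. Base pairs called only in shNT were most frequent at the edges there too. They made up 23.8% and 25.1% of the outer slices and 8.67% of the fifth.

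**Figure D3:**
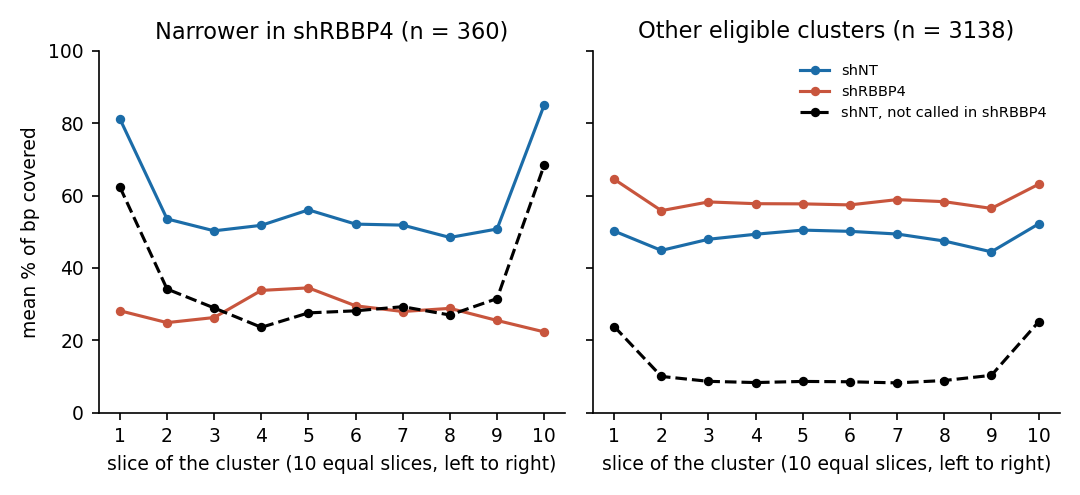
Mean share of base pairs covered by shNT regions (blue), by shRBBP4 regions (red) and by shNT but not shRBBP4 regions (dashed) in each of 10 equal slices of the cluster, for the 360 narrower clusters (left) and the 3138 other eligible clusters (right). In the narrower clusters the dashed line is highest in the outer slices, at 62.4% and 68.4%, and lowest in the fourth, at 23.6%. In the other eligible clusters it is also highest in the outer slices, at 23.8% and 25.1%.

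Regions at an end of the cluster and regions with low scores were those most often not called. Without an shRBBP4 overlap were 53.6% of the leftmost shNT regions (48.3 to 58.9), 57.2% of the rightmost (51.9 to 62.4) and 39.3% of those between (35.5 to 43.3). The same order held in the other eligible clusters, at 20.8%, 21.7% and 9.39%. The lowest-scoring shNT region of a cluster had no overlap in 242 of 360 clusters (67.2%, 62.1 to 72.1), and the highest-scoring one in 91 (25.3%, 20.9 to 30.1). In the other eligible clusters these shares were 27.2% and 4.53%. Regions that were not called lay a median of 339.5 bp from the nearest shRBBP4 region of their cluster.

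Score percentiles, computed within each list, described the same contrast. The score is the authors' own value for a region, its scale is not stated, and regions with equal scores share a percentile. The median shNT percentile was 35.2 (32.7 to 37.7) for the 646 regions not called in shRBBP4 and 65.3 (62.8 to 67.8) for the 702 overlapped regions. The regions not called were also narrower, with a median width of 166 bp against 300.5 bp, and a narrow region meets an overlap rule less easily. Strong regions were rare but not absent among those not called. There were 10 above percentile 90, the highest at 97.1, against 107 among the overlapped ones.

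**Figure D4:**
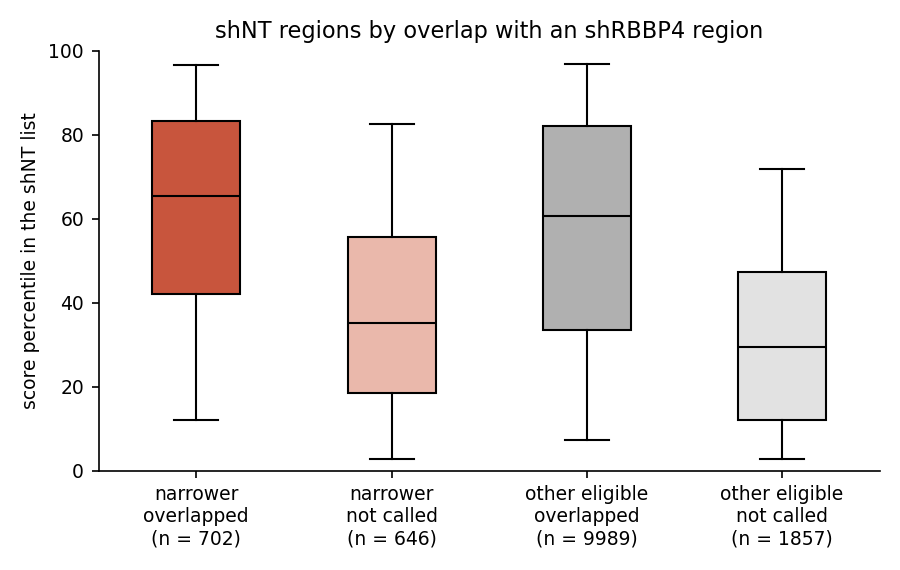
Score percentile within the shNT list of shNT regions in the 360 narrower clusters (red shades) and in the other eligible clusters (grey shades), split by overlap with an shRBBP4 region. Boxes give the quartiles and the median, and whiskers the percentiles 5 and 95; in both sets the regions not called in shRBBP4 rank lower, with medians of 35.2 and 29.4 against 65.3 and 60.7.

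The best region of a narrower cluster ranked somewhat lower than that of other clusters in shNT and much lower in shRBBP4. The median percentile of the best shNT region was 79.2 (76.2 to 82.2), against 84.8 in the other eligible clusters. The median percentile of the best shRBBP4 region was 69.2 (63.9 to 71.8), against 89.0 (88.2 to 89.6). In 266 of the 360 clusters (73.9%) the best region stood at a higher percentile in shNT than in shRBBP4, and in 93 the difference exceeded 25 percentile points. Among the other eligible clusters 37.6% stood higher in shNT, and 3.00% did so by more than 25 points. The narrower clusters held a median of 2 shRBBP4 regions and the others 4, and the best of fewer regions tends to rank lower. The lower shRBBP4 rank is thus not independent of the rule.

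The share of eligible clusters that were narrower varied less with shNT rank than with shRBBP4 rank and span. It was 14.04% (11.8 to 16.5) where the best shNT region stood between percentiles 50 and 75, 7.63% (6.11 to 9.38) between 90 and 99 and 7.79% (4.09 to 13.2) above 99. The share of wider clusters fell with shNT rank too, at 31.9%, 15.3% and 13.6% in the same classes. By the best shRBBP4 region the share of narrower clusters was 55.1% (47.7 to 62.3) up to percentile 50 and 3.55% (2.60 to 4.72) between 90 and 99. It fell with span, from 29.6% (19.99 to 40.8) of 81 clusters under 1000 bp to 4.60% (3.17 to 6.43) of 696 clusters from 3000 bp upward. The share of wider clusters instead rose from 8.64% to 28.6% between these span classes. Span counts regions of both libraries, and shRBBP4 covered length enters the rule. The contrasts by span and by shRBBP4 rank are thus not independent of it. Of the 154 clusters with the strongest shNT regions, 12 were among the narrower ones.

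The clusters varied with the number of shRBBP4 regions left. There was 1 in 98 clusters, 2 in 132 and at least 3 in 130. With 1 region left, the median ratio was 2.79, 70.9% of the shNT regions were not called (65.7 to 75.7), and the best shNT region was not called in 47 of the 98 clusters. That single region, a median of 212.5 bp wide and at a median percentile of 40.5, lay in the middle of the cluster in 40 cases, towards its left end in 27 and towards its right end in 31, when the span was cut into 3 equal parts. With at least 3 left, the median ratio was 1.73, and the best shNT region was not called in 16 of 130 clusters.

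The shRBBP4 regions of the narrower clusters lay largely within the shNT regions. Of 825 shRBBP4 regions, 737 overlapped an shNT region (89.3%, 87.0 to 91.4), against 76.0% in the other eligible clusters. Of the shRBBP4 covered length, 78.5% was also covered in shNT. Base pairs found only in shRBBP4 came to 42.3 kb, and 52 of the clusters had none.

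The narrower clusters were spread unequally over the chromosomes. On 6 chromosomes, namely 1, 7, 8, 13, 15 and X, the interval of the share of narrower clusters lay above the share on all other chromosomes. Together they held 240 of the 360 clusters (66.7%) but 28.1% of the eligible clusters. On these chromosomes 24.4% of eligible clusters were narrower (21.7 to 27.2), against 4.77% (3.97 to 5.68) on the others.

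Chromosome 13 had the highest share, 23 of 55 clusters (41.8%, 28.7 to 55.9), followed by X with 12 of 36 (33.3%, 18.6 to 51.0), 7 with 66 of 212 (31.1%, 24.97 to 37.8) and 8 with 50 of 170 (29.4%, 22.7 to 36.9). The intervals of these 4 chromosomes overlapped. Chromosome 15 had 25 of 119 (21.0%, 14.1 to 29.4) and chromosome 1 had 64 of 392 (16.3%, 12.8 to 20.4). Chromosome 16, with 23 of 177 (12.99%, 8.42 to 18.9), lay within the share of the others, but it was called higher with a joining gap of 500 bp, in lists of equal length, with a looser ratio limit and with at least 2 shNT regions.

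At the low end, 11 chromosomes (2, 3, 4, 5, 6, 9, 10, 14, 17, 19 and 20) had intervals below the share of the others. Chromosome 20 had 1 narrower cluster among 127 (0.787%, 0.0199 to 4.31), chromosome 14 had 1 of 59 (1.69%) and chromosome 19 had 4 of 175 (2.29%). Clusters wider in shRBBP4 made up 20.5% (chromosome 17) to 54.2% (chromosome 14) of the eligible clusters of these 11 chromosomes, with 21.9% on chromosome 5. On the 6 higher chromosomes they made up 3.64% (chromosome 13) to 35.3% (chromosome 15), with 16.6% on chromosome 1. The ranges thus overlapped. The list of 11 depended on the settings: between 3, in the higher-scoring 50% of each list, and all 11 stayed below the others.

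**Figure D5:**
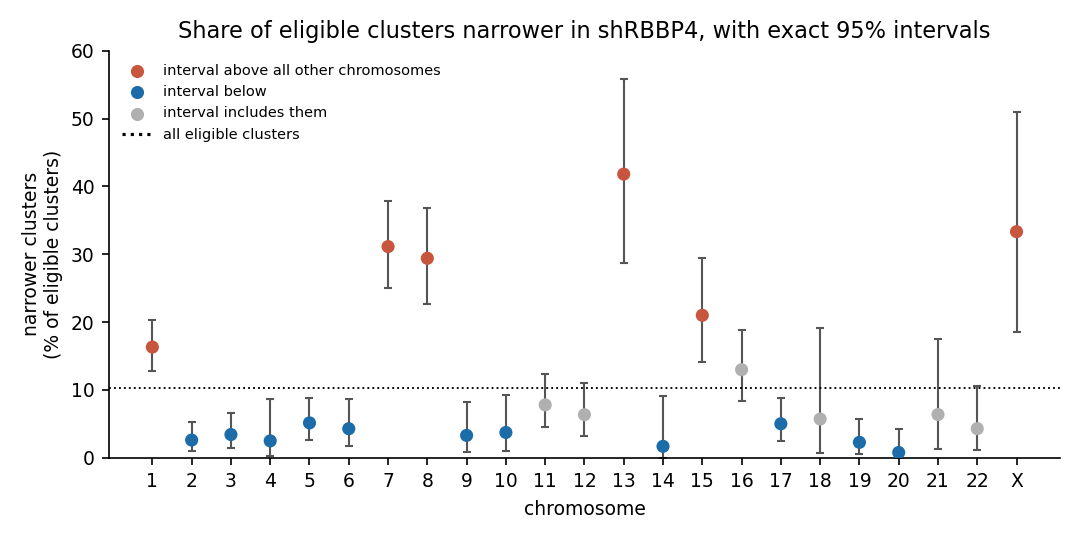
Percent of eligible clusters that were narrower in shRBBP4, by chromosome, with exact 95% intervals that cover counting error only; the dotted line is the share over all 3498 eligible clusters, 10.3%. Chromosomes 13, X, 7, 8, 15 and 1 (red) lie above the share of the others, 11 chromosomes (blue) below it, and 6 (grey) have intervals that include it.

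On 5 of the 6 higher chromosomes the ratio of covered length lay above the overall median of 0.875 over the eligible clusters as a whole, and chromosome 15 was the exception. The median shNT to shRBBP4 ratio of all eligible clusters was 1.29 on chromosome 13, 1.22 on 7, 1.17 on X, 1.16 on 8 and 0.990 on 1, against 0.653 on 14 and 0.735 on 20. Chromosomes 16 (1.05), 21 (0.908) and 18 (0.876), which were not called higher, also lay above the overall median. On chromosome 15 the median was 0.794 with quartiles of 0.577 and 1.35, so that both directions were found there. Of its 119 eligible clusters, 25 were narrower and 42 (35.3%) were wider in shRBBP4.

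Within chromosomes 1 and 15 the narrower clusters lay in stretches. Counted in 10-Mb stretches, 18 of 35 eligible clusters of chromosome 1 between 40 and 50 Mb were narrower and 1 was wider. Between 80 and 90 Mb 6 of 13 were narrower, and between 240 and 250 Mb again 6 of 13. Between 150 and 160 Mb, where chromosome 1 had most eligible clusters, 3 of 53 were narrower.

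On chromosome 15, between 60 and 70 Mb, 7 of 20 were narrower and 2 wider, and between 100 and 110 Mb 4 of 6 were narrower. Between 50 and 60 Mb chromosome 15 had 9 wider clusters among 13 and no narrower one. Both directions met between 40 and 50 Mb, with 7 narrower and 13 wider clusters among 27.

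On chromosomes 7, 8 and 13 the narrower clusters were found along most of the chromosome. They were few towards the right end of chromosome 8, with 0 of 17 from 120 to 130 Mb and 3 of 24 from 140 to 150 Mb. On chromosome 7 from 90 to 100 Mb, 2 of 24 were narrower and 8 wider, and from 120 to 130 Mb 1 of 12 was narrower. Among stretches with at least 5 eligible clusters, the highest share was 13 of 19 in the first 10 Mb of chromosome 7. Next came 14 of 21 on chromosome 8 and 4 of 6 on chromosome 15, both from 100 to 110 Mb. Then followed 5 of 8 from 10 to 20 Mb on chromosome 7. On chromosome 13 the highest share was 3 of 5 from 90 to 100 Mb. On chromosome 16, 8 of 23 narrower clusters lay in the first 10 Mb. Of 231 stretches genome-wide with at least 5 eligible clusters, 95 had no narrower cluster. How many would lack one by counting error alone was not tested. The 34 stretches in which at least 25% were narrower held 190 of the 360, and 470 of the 3498 eligible clusters. These stretches were singled out after their values were seen.

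The narrower clusters of the 6 chromosomes had a somewhat higher ratio than those elsewhere. Their median ratio was 1.98 (quartiles 1.71 and 2.80), against 1.82 (1.64 and 2.14) for the 120 others. The rule uses this ratio, and the 6 chromosomes were called by their share of narrower clusters. The difference in ratio is thus not independent of how both were chosen. The share of shNT regions not called was 49.4% (46.1 to 52.7) against 44.9% (40.2 to 49.7), with overlapping intervals, and the best shNT region was not called in 25.4% and 25% of clusters. Chromosome 13 had the highest median ratio of the 6, at 2.58, and the best shNT region was not called in 11 of its 23 narrower clusters. The part of the shNT-only base pairs that lay at the ends was similar in both sets, at 69.8% and 73.4%.

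Other regions around the narrower clusters leaned less towards shRBBP4 than those around the other eligible clusters. All regions within 250 kb were taken, leaving out every narrower cluster. The rule was applied to these neighbours too, so they are not independent of it. Windows of nearby clusters overlap, so a region can be counted more than once. In the 330 windows with regions of both libraries, the median ratio of shRBBP4 to shNT covered length was 1.15 (1.09 to 1.21), against 1.53 (1.51 to 1.56) around the other eligible clusters. More shNT than shRBBP4 regions were found around 100 of 341 narrower clusters (29.3%, 24.5 to 34.5), against 10.2% (9.18 to 11.4) around the others.

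The ratio of shRBBP4 to shNT covered length around clusters differed by chromosome and by place along it. On the 6 chromosomes the median ratio was 0.976 (0.931 to 1.04) around narrower and 1.27 (1.24 to 1.33) around other eligible clusters. On the remaining chromosomes it was 1.39 (1.30 to 1.49) and 1.59 (1.56 to 1.63). The clearest contrast within a chromosome was on 15, where the summed shRBBP4 to shNT covered length was 1.08 around narrower and 2.07 around other clusters. On chromosome 7 it was 0.965 and 1.15, on 8 it was 1.06 and 1.23, and on 1 it was 1.11 and 1.37. On 13 (1.09 and 1.14) the values were close, and on X (0.905 and 0.814) the order was the opposite, from 23 and 12 narrower clusters. With 1 library per shRNA the library and the shRNA cannot be told apart.

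Clusters of 1 library alone around the narrower clusters of the 6 chromosomes were nearly balanced. Summed over windows, in which a cluster can count more than once, 228 were called only in shNT and 249 only in shRBBP4. Around the other eligible clusters of these chromosomes the sums were 478 and 1310. Around the narrower clusters elsewhere they were 74 and 267, against 1117 and 6162. The nearest other cluster of any kind lay at a median distance of 30.9 kb from a narrower cluster and 23.9 kb from the others.

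In the pooled order of eligible clusters, narrower clusters followed each other more often than they followed other clusters. After a narrower cluster the next eligible cluster was narrower in 84 of 357 cases (23.5%, 19.2 to 28.3), and after another eligible cluster in 271 of 3118 (8.69%, 7.73 to 9.74). The contrast was smaller within sets of chromosomes. On the 6 chromosomes the shares were 32.1% (26.2 to 38.4) and 21.7% (18.8 to 24.9). On the others they were 6.67% (2.92 to 12.7) and 4.63% (3.82 to 5.55), where the intervals overlapped. Single chromosomes among the 6 still ranged from 16.3% to 41.8% narrower clusters. Succession along a chromosome and differences between chromosomes thus cannot be told apart by these shares. The cluster with the highest ratio, on chromosome 5, had 8 shNT and 17 shRBBP4 regions of other clusters within 250 kb, narrower ones left out. The weaker lean towards shRBBP4 was thus not found around it.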

How the data were processed

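The submitters deposited 1 list of called regions for each of the 2 H3K9ac libraries, and these are the data used here. Each row of a deposited list gives a region and a score, the authors' own value, whose scale is not stated. Per the file headers, the track names carry macs2 and PE. Per the submitters' processing notes, SICER, Picard, BWA and bcl2fastq 2.15.0 are named, with hg19 (GRCh37), and no step is given for any of them. For the threshold, the input and the depth, nothing is given in the sources used here, so a difference in called length may also follow depth or threshold.

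The clusters and measures were chosen with earlier results of these data known. Scores were ranked only within their list. Covered length counts each base pair once. Shares have exact Clopper-Pearson intervals and medians have order-statistic intervals, both at 95%. Chromosomes were called by whether their interval held the share of all others. The rule for named clusters takes the 6 largest differences in covered length, the 4 highest ratios, the 5 highest shNT scores, the 3 with most shNT regions (ties going to the larger shNT covered length), and the 3 on each side of the ratio limit. The 17 drawn clusters leave out those at the limit and count a cluster named under 2 headings once. No p-value was computed. The functions were tested on simulated clusters with set members. The genomic class of clusters and their genes were planned and not run, because no annotation of the files' build was used. Alternatives covered the joining gap, region numbers, ratio and span limits, list length, overlap rules and ranks by width. Software was scipy 1.17.1, pandas 2.3.3, numpy 2.4.6, matplotlib 3.10.9 and Python 3.11.15.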

Additional observations from a re-analysis of the deposited data

How the results depend on the processing

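No paired analysis was possible because only 1 library stands for each shRNA. Of 90 values computed under other settings, 53 stayed close to those of the report (counts within 1.5 times, shares and medians within their interval) and 37 moved. Numbers of clusters were judged by count, so some moved although their share of eligible clusters stayed within its interval. The number of narrower clusters, 360 in the report, was 228 in the higher-scoring 50% of each list (16.7% of eligible clusters, against 10.3%). It was 633 in lists of equal length (18.1%), with the shRBBP4 list cut to its highest-scoring regions. A looser ratio limit gave 640 (18.3%) and a ratio of at least 2 gave 160 (4.57%). With at least 2 and 4 shNT regions there were 708 (11.3%) and 174 (10.28%). Wider clusters numbered 860 in the higher-scoring 50% (47.3%), 1170 in lists of equal length (37.5%) and 1426 at a ratio of at least 2 (29.1%). With at least 2 and 4 shRBBP4 regions they numbered 3532 (46.1%) and 1220 (47.1%), against 46.9% in the report. The number of chromosomes outside the share of the others, 17 in the report, was 7 in the higher-scoring 50%, where chromosomes 1, 7 and 8 were still higher and 13, 15 and X were not. At a ratio of at least 2, chromosomes 1 and X were no longer higher. All 6 were higher under the other joining gaps, in lists of equal length, with other region numbers, without a span limit, with the looser ratio limit and per covered shNT length. Chromosome 16 was also called higher in 4 settings. Of the 11 lower chromosomes, 3 stayed lower in the higher-scoring 50%, 7 in lists of equal length, at a ratio of at least 2 and with at least 4 regions, 8 with a joining gap of 500 bp and per covered shNT length (4, 10 and 14 lost in the latter), 9 with at least 2 regions, 10 with a gap of 2 kb and 11 in the rest.

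The median percentile of the best shNT region was 88.1 in the higher-scoring 50%, 82.7 with the looser limit, 73.4 with at least 2 regions, 82.3 with at least 4 and 83.9 by width. That of the best shRBBP4 region was 81.2 in the higher-scoring 50%, 76.5 in lists of equal length and with the looser limit, 51.8 at a ratio of 2 and 59.7 with at least 2 regions. The share of shNT regions not called was 53.2% in the higher-scoring 50%, 54.4% in lists of equal length, 40.0% with the looser limit and 59.3% at a ratio of 2. It was 54.5% where an overlap had to reach 50% of the shorter region, and 73.96% where it had to reach 50% of both. In the higher-scoring 50%, regions not called and overlapped regions had median percentiles of 66.8 and 79.9 in the full list, and by width the overlapped ones stood at 69.2. Clusters with most of the missing length at the ends made up 87.7% in the higher-scoring 50%, 85.5% in lists of equal length, 70.3% with the looser limit, 84.4% at a ratio of 2, 82.6% with at least 2 regions and 70.1% with at least 4. Settings with other limits hold other clusters by construction. Unknown depth limits every comparison of called length.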
